A study of Mus musculus with 37 samples.

Results

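Lungs of the inbred mouse strain A/J were compared between embryonic day E18.5 and E17.5, at the start of the saccular stage of lung development. The comparison rests on 6 of the 37 arrays of the series: 3 labelled A/J at E18.5 and 3 labelled A/J at E17.5. Each array measured RNA of whole right lung, pooled from 3 male fetuses of 1 litter, so that a replicate is a litter and not an animal. The labels name no treatment and no engineered allele. The second strain, C57BL/6J (B6), which differs from A/J in gestational length, was used only for the difference between strains, with 3 litters at E18.5 and 3 at E17.5. B6 at E18.5 had an additional array, 2b, which was averaged with array 2.

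In the saccular stage the distal tubules widen into thin-walled sacs. Type II cells, which make surfactant, and flat type I cells, which form the surface for gas exchange, take on their adult features, capillaries come to lie against the epithelium, and the mesenchyme between the sacs thins. Surfactant is a film of phospholipid, chiefly phosphatidylcholine, and of surfactant proteins that keeps the sacs open after birth. Club and ciliated cells of the airways mature over the same days, and division of the lung's cells slows.

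The tissue label was borne out by lung epithelial markers. Sftpc, surfactant protein C and the defining transcript of distal lung epithelium, stood at log2 values of 13.67, 13.71 and 13.76 in the E18.5 lungs and at 13.61, 13.70 and 13.72 in the E17.5 lungs. Nkx2-1, the transcription factor that specifies lung epithelium, stood at 9.94, 9.78 and 9.83 in the E18.5 lungs and at 9.82, 9.96 and 9.93 in the E17.5 lungs. Neither gene was called: Sftpc changed by 0.04 as deposited and -0.10 after each array was centred on its median, and Nkx2-1 by -0.05 and -0.19 (adjusted p = 0.064 after centring). All levels in the text are RMA log2 values of an Affymetrix array, a change is the mean at E18.5 minus the mean at E17.5, and SE is limma's moderated standard error. Because the arrays measured bulk RNA, a change in the number of cells of a type and a change in RNA per cell cannot be told apart.

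The 3 E18.5 arrays had medians of 7.07 to 7.13 over the 21789 probe sets with a single gene symbol, above the E17.5 arrays (6.96 to 6.97) and above all other 33 replicates of the series (6.86 to 7.0). The median change was accordingly 0.12 in the values as deposited and -0.02 after each array was centred on its median, and the counts over all probe sets are given on both scales. The shift depended on level. With probe sets split into 10 equal bins by mean level, the median change as deposited was 0.20 in bin 1, the dimmest, 0.05 in bins 3 and 4, 0.17 in bin 7 and 0.08 in bin 10. E18.5 replicate 2 lay closer to the E17.5 lungs (r = 0.990 to 0.992 over probe sets) than replicates 1 and 3 did (r = 0.984 to 0.988).

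On the values as deposited, 5831 probe sets (26.8% of those tested) were higher and 993 (4.56%) were lower at E18.5 than at E17.5, at an adjusted p under 0.05; without E18.5 replicate 3 the 993 became 656. On the centred values 2428 (11.1%) were higher and 2656 (12.2%) were lower. All 2428 higher on the centred scale were also among the 5831, and all 993 lower on the deposited scale were also among the 2656. These 2428 and 993 probe sets, which stood for 2307 and 915 genes, kept their direction and call on both scales. Most changes were small. With a fold of 1.5 added to the threshold, 765 (3.51%) were higher and 80 (0.367%) lower as deposited, and 280 (1.29%) were higher and 236 (1.08%) lower after centring.

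**Figure D1:**
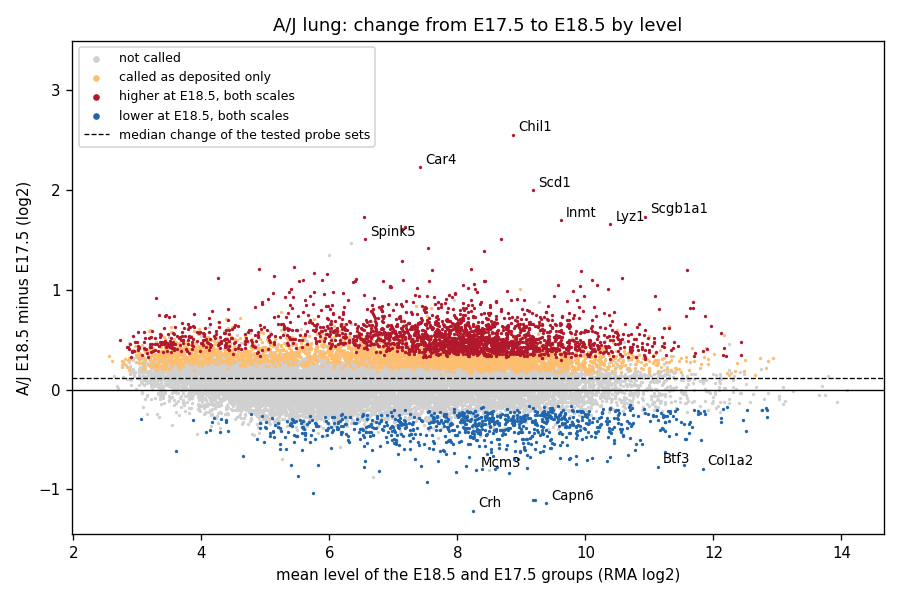
Change of each gene in A/J lung (E18.5 minus E17.5, log2, vertical axis) against the mean of both groups' levels (RMA log2, horizontal axis), as deposited, with 1 probe set for each gene. The cloud sits above 0, with its median (dashed line) at 0.12, and the largest rises (Chil1, Car4, Scd1) exceed the largest falls (Crh, Capn6) in size.

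Chil1, a chitinase-like protein secreted by type II cells and macrophages, had the largest rise, with values of 10.51, 9.38 and 10.56 at E18.5, against 7.40, 7.63 and 7.75 at E17.5. It changed by 2.56 ± 0.23 (SE), a 5.88-fold rise (adjusted p = 1.1e-08), and by 2.42 after centring. Replicate 2 was the lowest E18.5 lung. The groups did not overlap, which the choice of the largest rises required.

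Car4, carbonic anhydrase 4 of the alveolar capillary, had 8.64, 8.10 and 8.86 at E18.5, against 6.41, 5.94 and 6.56 at E17.5 (4.69-fold higher, adjusted p = 1.1e-08). Scd1, the desaturase that makes monounsaturated fatty acids, had 10.43, 9.87 and 10.23 at E18.5, against 8.11, 8.12 and 8.30 at E17.5 (4.0-fold higher, adjusted p = 1.1e-08). In both genes every E18.5 lung exceeded every E17.5 lung by more than a log2 unit, though the choice itself required that they not overlap. Scgb1a1, the secretoglobin that defines club cells, had 11.94, 11.45 and 12.02 at E18.5, against 9.82, 10.16 and 10.23 at E17.5 (3.32-fold higher, adjusted p = 0.0020). Lyz1, a lysozyme of type II cells, had 11.36, 10.86 and 11.43 at E18.5, against 9.15, 9.61 and 9.91 at E17.5 (3.16-fold higher, adjusted p = 5.4e-06). Inmt, a methyltransferase found in lung fibroblasts, had 10.44, 9.88 and 11.06 at E18.5, against 8.71, 8.69 and 8.89 at E17.5 (3.24-fold higher, adjusted p = 1.0e-04). Replicate 2 was the lowest E18.5 lung in each of these 5 genes.

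The other 9 of the 15 largest rises ran from 1.73 for Pon1 to 1.23 for AW112010. Pon1 encodes the lactonase paraoxonase, and Gdpd2 (1.63), a glycerophosphodiester phosphodiesterase. Chia1 (1.61) encodes an acidic chitinase, Hc (1.51) complement component C5, for which A/J is known as a deficient strain, and Spink5 (1.51) a serine protease inhibitor. Lcn2 (1.42) encodes lipocalin 2, which withholds iron from bacteria, Vnn1 (1.39) the pantetheinase vanin 1, and Rtkn2 (1.29) a rhotekin of type I cells. The 15 were picked from genes called on both scales with the same direction and without overlap. Their rise after centring was therefore fixed by the choice, and its size ran from 1.09 (AW112010) to 2.42 (Chil1).

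**Figure D2:**
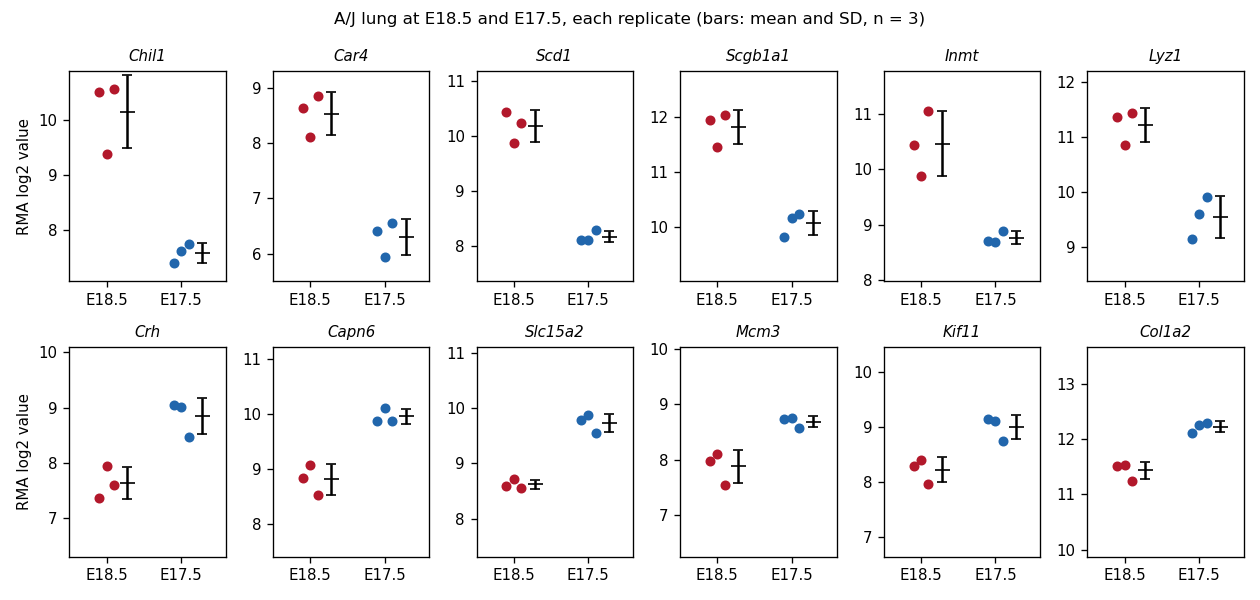
RMA log2 value of 12 genes in each A/J litter, E18.5 (red, left) and E17.5 (blue, right), with the mean and SD of 3 replicates as bars; every panel spans the same number of log2 units. The 12 genes are among the 15 largest rises and 15 largest falls, picked from genes whose litters of both days do not overlap. Over all tested probe sets as deposited, 31.0% were higher and 5.71% lower without overlap. E18.5 replicate 2, the middle red point, is the one closest to E17.5 in Chil1, Car4, Scd1, Scgb1a1, Inmt and Lyz1.

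Among markers of type II cells, 10 of 14 were higher at E18.5 and none lower as deposited (5 and 0 after centring), with a median change of 0.36 (0.22 after centring). Without E17.5 replicate 1 the 10 became 6. Every count of A/J calls in a gene list is to be read beside the shares over all probe sets tested. These were 26.8% higher and 4.56% lower as deposited, and 11.1% and 12.2% after centring. Sftpd, a collectin of surfactant that binds microbes, had 8.81, 8.75 and 9.33 at E18.5, against 7.73, 7.92 and 7.98 at E17.5 (2.12-fold higher, adjusted p = 1.5e-05). Sftpb, the surfactant protein without which the film does not form, had 12.06, 11.87 and 12.19 at E18.5, against 11.07, 11.24 and 11.34 at E17.5 (1.77-fold higher, adjusted p = 4.0e-04). Sftpa1, the other collectin, changed by 0.64 ± 0.16. The 3 rose on both scales, whereas Sftpc, described above, was not called on either. Abca3, the lipid transporter of lamellar bodies, changed by 0.28 ± 0.09 (adjusted p = 0.022), and this call was lost after centring (0.14, adjusted p = 0.30). Lamp3, a membrane protein of lamellar bodies, and Slc34a2, the phosphate transporter of type II cells, changed by 0.21 ± 0.16 and 0.46 ± 0.25 and were not called.

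Of 18 genes of surfactant and lamellar bodies, 12 were higher and none lower as deposited, and 8 were higher and 1 lower after centring, with a median change of 0.43 (0.29 after centring). The 8 were Scd1, Pon1, Lyz1, Sftpd, Sftpb, Lyz2, Ctsh and Sftpa1, and the 1 was Pcyt1a, the rate-limiting enzyme of phosphatidylcholine synthesis, which was not called as deposited. Enzymes of fatty acid and phosphatidylcholine synthesis were higher in 10 of 24 (6 higher and 1 lower after centring). Elovl1, an elongase of long fatty acids, changed by 0.74 ± 0.11, and Agpat2, which makes phosphatidic acid, by 0.71 ± 0.11. Chpt1, the cholinephosphotransferase of the last step to phosphatidylcholine, changed by 0.56 ± 0.10. All 3 rose on both scales. In cholesterol synthesis, 8 of 18 genes were higher and 2 lower as deposited. After centring 2 were higher and 2 lower, near the shares over all probe sets tested (11.1% and 12.2%). The 8 became 4 without E17.5 replicate 1 and 5 without E17.5 replicate 2. Insig1, a sterol sensor, changed by 0.99 ± 0.13 and Idi1, an isomerase of the pathway, by 0.56 ± 0.13, and these were the genes of the list that rose on both scales.

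Type I markers were higher more often than lower. Of 15, 10 were higher and 1 lower as deposited (7 and 1 after centring), with a median change of 0.36 (0.22); the 7 became 4 without E18.5 replicate 1, 3 without E18.5 replicate 3 and 4 without E17.5 replicate 2. Rtkn2 had 8.20, 7.29 and 7.84 at E18.5, against 6.60, 6.66 and 6.20 at E17.5 (2.45-fold higher). Spock2, a proteoglycan of the matrix, changed by 1.05 ± 0.15, Aqp5, the water channel of the type I surface, by 0.87 ± 0.13, and Pdpn, podoplanin, by 0.57 ± 0.11. Ager, the receptor that marks mature type I cells, changed by 0.47 ± 0.12 (0.33 after centring). The list did not move as one. Akap5, a kinase anchoring protein, fell to 11.02, 11.30 and 11.26 at E18.5, against 11.65, 11.72 and 11.54 at E17.5 (change -0.44 ± 0.14, and -0.58 after centring), and Cav1, caveolin 1, changed by -0.03 ± 0.10.

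Airway epithelium showed changes of similar size. Of 9 measured club cell markers, 6 were higher and none lower (5 and 0 after centring, and 3 of these without E18.5 replicate 3). Hp, haptoglobin, changed by 1.05 ± 0.19, Scgb3a1, a secretoglobin, by 0.81 ± 0.13, and Cyp2f2, the cytochrome that marks club cells, by 0.52 ± 0.14, and these rose on both scales. Scgb3a2, the secretoglobin that appears earliest in the airway, changed by 0.31 ± 0.16 and was not called. Xenobiotic enzymes, many of them made in club cells, were higher in 16 of 26 and lower in none as deposited, and 12 of 26 were higher after centring (6 without E18.5 replicate 3). Cyp2e1 (1.1), Aox3 (1.03) and Cyp4b1 (1.01), which oxidise small molecules, at least doubled on the linear scale as deposited and rose by 0.96, 0.89 and 0.87 (log2) after centring.

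Most ciliated cell genes rose. Of 13 measured, 11 were higher and none lower as deposited, and 8 were higher after centring, with a median change of 0.56 (0.42 after centring). Cdhr3, a cadherin of ciliated cells, had 7.44, 6.97 and 7.22 at E18.5, against 6.44, 6.38 and 6.38 at E17.5 (1.75-fold higher, adjusted p = 1.5e-05). Rsph1, a radial spoke protein, changed by 0.66 ± 0.12, and Dnah9 and Dnah5, axonemal dynein heavy chains, by 0.62 ± 0.10 and 0.56 ± 0.12. Ccdc39, which sets the spacing of the arms along the axoneme, changed by 0.59 ± 0.11. The mean over the 13 genes was 7.54, 7.34 and 7.48 in the E18.5 lungs and 6.94, 7.0 and 6.95 in the E17.5 lungs, without overlap. Foxj1, the master regulator of motile cilia, changed by only 0.12 ± 0.13 and was not called.

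In the vasculature, 9 of 15 endothelial markers were higher and none lower as deposited, and 7 were higher and 1 lower after centring (4 higher without E18.5 replicate 3). Ramp2, which makes the receptor for adrenomedullin, had 10.77, 10.64 and 10.81 at E18.5, against 9.85, 10.05 and 10.08 at E17.5 (1.68-fold higher, adjusted p = 5.0e-06). Cldn5, the endothelial claudin, changed by 0.70 ± 0.10. These rose on both scales, while the general endothelial markers Pecam1 (0.07 ± 0.08) and Kdr (0.05 ± 0.07) were not called. Of 11 genes of capillary specialization, 6 were higher and 1 lower (5 and 1 after centring). Besides Car4 these included Edn1, the vasoconstrictor endothelin 1 (0.96 ± 0.19), and Apln, apelin (0.62 ± 0.12). The 1 lower was Ednrb, an endothelin receptor of the same capillary type (-0.32 ± 0.08). Epas1, the hypoxia-inducible factor of endothelium, had 10.01, 9.96 and 9.98 at E18.5, against 8.99, 9.03 and 9.12 at E17.5 (1.91-fold higher, adjusted p = 1.4e-06).

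Lymphatic endothelial markers were higher in 6 of 7 (5 after centring, and of these 2 without E18.5 replicate 1, 2 without E18.5 replicate 3 and 3 without E17.5 replicate 2). Prox1, the factor that specifies lymphatic vessels, changed by 0.56 ± 0.12 and Flt4, the receptor for their growth factor, by 0.43 ± 0.11. Of 20 genes for ion and water transport, which clear lung liquid at birth, 10 were higher and none lower as deposited, and 8 were higher and 2 lower after centring. Scnn1a, the alpha subunit of the epithelial sodium channel, had 10.12, 9.88 and 10.47 at E18.5, against 9.30, 9.20 and 9.31 at E17.5 (1.85-fold higher, adjusted p = 8.4e-05). Fxyd5, a regulator of the sodium pump, changed by 1.04 ± 0.12 and Aqp1, the water channel of vessels, by 0.77 ± 0.12.

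Host defense genes were higher as well. Of 30 measured, 18 were higher and none lower as deposited, and 15 were higher after centring, with a median change of 0.47 (0.33 after centring). Beyond Scgb1a1, Lyz1, Hc and Lcn2, the group is represented by Lyz2, the macrophage and type II lysozyme (0.78 ± 0.14). Of 21 complement genes, 13 were higher and 1 lower (9 and 2 after centring). C1s1, a protease that starts the classical pathway, changed by 0.96 ± 0.18, Cd55, which shields host cells from complement, by 0.94 ± 0.14, and C6, a subunit of the membrane attack complex, by 0.93 ± 0.16. Macrophage markers were higher in 8 of 14 and lower in none (5 after centring, and 3 of these without E18.5 replicate 1, E18.5 replicate 3 or E17.5 replicate 2). C1qa, a chain of complement C1q made by macrophages, had 8.15, 8.13 and 8.14 at E18.5, against 7.52, 7.72 and 7.56 at E17.5. The receptor Csf1r, present on all macrophages, changed by 0.14 ± 0.07 and was not called.

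Interferon response genes were higher in 17 of 27 and lower in none as deposited, and 9 were higher after centring. The 17 became 11 without E18.5 replicate 1, and the 9 became 14 without E18.5 replicate 2 and 5 without E18.5 replicate 3. Mx2, an antiviral GTPase, had 5.71, 5.51 and 5.88 at E18.5, against 4.36, 4.80 and 4.53 at E17.5 (2.20-fold higher, adjusted p = 4.4e-05). Irf7, the factor that amplifies interferon production, changed by 1.03 ± 0.19, and Usp18, which limits interferon signalling, by 0.94 ± 0.15. Rsad2 (viperin, 0.03 ± 0.20) and Ifit3 (an RNA sensor, 0.16 ± 0.21) were not called. Genes of this kind are typically controlled by an interferon-stimulated response element, whose core is a pair of GAAA repeats set 2 bases apart. The window from 250 bases before to 50 bases after each gene start was searched on both strands. This core was present in 11 of the 22 genes of the list with a promoter in the RefSeq table. It was present in 3.44% of all 32851 promoters, which belong to 27025 genes, so this share counts promoters and not genes. The stretches around the core are shown for 3 called genes that hold it before the start, with the core in capitals on either strand. In Gbp3 and Bst2 a pair of overlapping copies share a repeat.

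Gbp3 promoter (GRCm38.p6, chr3:142559974-142560039, + strand): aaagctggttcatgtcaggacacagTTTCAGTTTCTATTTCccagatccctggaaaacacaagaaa
Bst2 promoter (GRCm38.p6, chr8:71537562-71537627, - strand): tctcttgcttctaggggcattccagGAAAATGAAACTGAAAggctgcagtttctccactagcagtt
Stat2 promoter (GRCm38.p6, chr10:128270251-128270310, + strand): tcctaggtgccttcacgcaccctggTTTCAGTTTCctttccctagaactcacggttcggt

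Gbp3, a guanylate-binding protein, had 7.36, 6.97 and 7.32 at E18.5, against 6.50, 6.69 and 6.55 at E17.5 (0.64 ± 0.17). Bst2, tetherin, which holds budding virus at the cell surface, had 8.61, 8.21 and 8.61 at E18.5, against 7.90, 8.02 and 7.94 at E17.5 (0.52 ± 0.12). Both rose on both scales. Stat2, a transducer of interferon signals, changed by 0.36 ± 0.12 and lost its call after centring (0.22, adjusted p = 0.18). A match to these letters is a description and shows no binding.

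The largest falls were smaller than the largest rises. Crh, corticotropin-releasing hormone, had 7.36, 7.94 and 7.60 at E18.5, against 9.05, 9.02 and 8.47 at E17.5 (2.32-fold lower, adjusted p = 4.8e-05). Capn6, a calpain-like protein that stabilises microtubules, had 8.84, 9.08 and 8.53 at E18.5, against 9.88, 10.11 and 9.88 at E17.5 (2.20-fold lower, adjusted p = 2.1e-06). Slc15a2, a peptide transporter, had 8.60, 8.71 and 8.56 at E18.5, against 9.78, 9.87 and 9.55 at E17.5 (2.16-fold lower, adjusted p = 1.0e-06). In the 3 genes the litters of both days were apart, which the choice of the largest falls required. Their changes after centring were -1.35, -1.28 and -1.25. The other 12 of the 15 largest falls ran from -1.11 for Narf to -0.77 for Btf3. They held Mcm3, of the helicase that licenses DNA replication (-0.81), the mitotic kinesins Kif20a (-0.79), Kif2c (-0.79) and Kif11 (-0.78), and Cenpw, of the centromere (-0.86). They also held Col1a2, a chain of type I collagen (-0.79), Rnf20, which ubiquitinates histone H2B (-0.84), Casp2, a caspase (-0.79), Tox4 (-0.83) and Hamp2, a hepcidin (-0.82).

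Some cell division genes fell, and how many depended on the scale and on single litters. Of 37 genes of mitosis, 14 were lower and 1 higher as deposited, and 19 were lower and none higher after centring, with a median change of -0.27 (-0.41 after centring). The count of 14 was 9 without E18.5 replicate 1, 6 without E18.5 replicate 3, 8 without E17.5 replicate 1 and 7 without E17.5 replicate 2, and the count of 19 was 12 without E18.5 replicate 3 or E17.5 replicate 2. Kif11, the motor that separates spindle poles, had 8.30, 8.40 and 7.97 at E18.5, against 9.14, 9.11 and 8.75 at E17.5 (1.71-fold lower, adjusted p = 0.0062). Top2a, the topoisomerase that untangles chromosomes, had 9.46, 9.83 and 9.28 at E18.5, against 10.31, 10.31 and 9.94 at E17.5 (1.58-fold lower, adjusted p = 0.017). Mki67, the proliferation marker, had 9.39, 9.40 and 9.17 at E18.5, against 10, 9.96 and 9.66 at E17.5 (change -0.55 ± 0.16). The groups did not overlap in these genes, for Kif11 by the choice of the largest falls. E18.5 replicate 2 held the highest E18.5 value in each of these genes. Cdk1, the kinase that drives entry into mitosis, changed by -0.20 ± 0.15 and was not called.

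Of 34 genes of the G1/S transition and replication licensing, 10 were lower and 3 higher as deposited, and 17 were lower and 1 higher after centring. The 10 became 2 without E18.5 replicate 3, 5 without E17.5 replicate 1 or 2 and 6 without E17.5 replicate 3, and the 17 became 8 without E18.5 replicate 3 and 11 without E17.5 replicate 1. Mcm3 had 7.98, 8.11 and 7.54 at E18.5, against 8.74, 8.75 and 8.57 at E17.5 (1.75-fold lower, adjusted p = 9.5e-05). Pola1, the DNA polymerase that primes replication, changed by -0.53 ± 0.14. The 1 gene higher on both scales was E2f3, a factor of the cell cycle entry program (0.50 ± 0.12).

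Promoters of mitotic genes are known for the cell cycle genes homology region (CHR), TTTGAA, through which they are held off outside late cell cycle phases, and for CCAAT boxes, which bind the activator NF-Y. On both strands of the promoter window, TTTGAA was present in 21 of the 30 mitotic genes with a RefSeq promoter and in 17.9% of all promoters. CCAAT was present in 22 of the 30 and in 37.4% of all promoters. The shares over all again count promoters, while the lists count genes. In the genes of the G1/S list TTTGAA was present in 5 of 29. The 120 bases before the start are shown for the 4 called mitotic genes with the largest falls among those holding both elements there, with the elements in capitals on either strand; no copies overlap.

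Kif11 promoter (GRCm38.p6, chr19:37376262-37376381, + strand): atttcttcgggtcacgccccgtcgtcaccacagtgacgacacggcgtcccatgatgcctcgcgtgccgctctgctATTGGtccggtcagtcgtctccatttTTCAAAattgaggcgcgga
Top2a promoter (GRCm38.p6, chr11:99024190-99024309, - strand): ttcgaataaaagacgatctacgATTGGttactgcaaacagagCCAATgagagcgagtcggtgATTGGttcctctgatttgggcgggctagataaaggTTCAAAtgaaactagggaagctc
Ect2 promoter (GRCm38.p6, chr3:27153879-27153998, - strand): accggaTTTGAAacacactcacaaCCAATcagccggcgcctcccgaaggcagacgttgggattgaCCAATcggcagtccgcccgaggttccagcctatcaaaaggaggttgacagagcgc
Prc1 promoter (GRCm38.p6, chr7:80294356-80294475, + strand): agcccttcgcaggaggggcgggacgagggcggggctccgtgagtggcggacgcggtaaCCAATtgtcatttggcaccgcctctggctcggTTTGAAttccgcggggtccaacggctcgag

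Ect2, the exchange factor that places the cleavage furrow, had 9.0, 9.11 and 8.62 at E18.5, against 9.55, 9.67 and 9.31 at E17.5 (change -0.60 ± 0.15). Prc1, which bundles microtubules of the spindle midzone, had 8.86, 8.99 and 8.81 at E18.5, against 9.44, 9.5 and 9.16 at E17.5 (change -0.48 ± 0.18). Like Kif11 and Top2a, they fell on both scales.

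Collagen chains were lower more often than higher. Of 22 collagen chains, 12 were lower and 1 higher as deposited, and 15 were lower and none higher after centring, with a median change of -0.26 (-0.40 after centring). Col1a2 had 11.52, 11.53 and 11.25 at E18.5, against 12.12, 12.26 and 12.30 at E17.5 (1.73-fold lower, adjusted p = 3.0e-06). Col3a1, the fibrillar collagen of soft tissue, had 11.09, 11.03 and 10.64 at E18.5, against 11.52, 11.60 and 11.53 at E17.5 (1.55-fold lower, adjusted p = 8.8e-05). Col18a1 (-0.70 ± 0.11) and Col5a2 (-0.62 ± 0.11) moved likewise, and Col4a1, of the alveolar basement membrane, was not called (-0.02 ± 0.07). Replicate 3 was the lowest E18.5 lung in Col1a2 and Col3a1. Elastic fibre genes went both ways. Fbn2, the fetal fibrillin, fell to 10.19, 10.42 and 9.54 at E18.5, against 10.88, 10.63 and 10.66 at E17.5 (1.59-fold lower), while Loxl1, which cross-links elastin, rose by 0.62 ± 0.11. Eln itself, elastin, changed by 0.21 ± 0.10 and was not called.

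For several large groups the scale decided the count. Cytosolic ribosomal protein genes were lower in 12 of 60 as deposited (7 without E18.5 replicate 1) and in 34 of 60 after centring, with Rps21 (-0.66 ± 0.10) and Rps12 (-0.49 ± 0.08) lower on both and Rps28 higher on both (0.39 ± 0.08). Over all probe sets tested, 26.8% were higher and 4.56% lower as deposited, and 11.1% and 12.2% after centring. Respiratory chain genes were higher in 27 and lower in 3 of 70 as deposited, and higher in 13 and lower in 11 after centring. The 3 became 6 without E18.5 replicate 2 and 1 without E17.5 replicate 2, the 13 became 8 without E18.5 replicate 3 or E17.5 replicate 1, and the 11 became 6 without E18.5 replicate 1 and 7 without E17.5 replicate 3. The median changes of the lists of Wnt, Hedgehog, TGF-beta and BMP, and Hox genes were positive as deposited (0.07, 0.07, 0.09 and 0.11) and negative after centring (-0.07, -0.07, -0.05 and -0.03), so that no direction can be given for these lists.

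**Figure D3:**
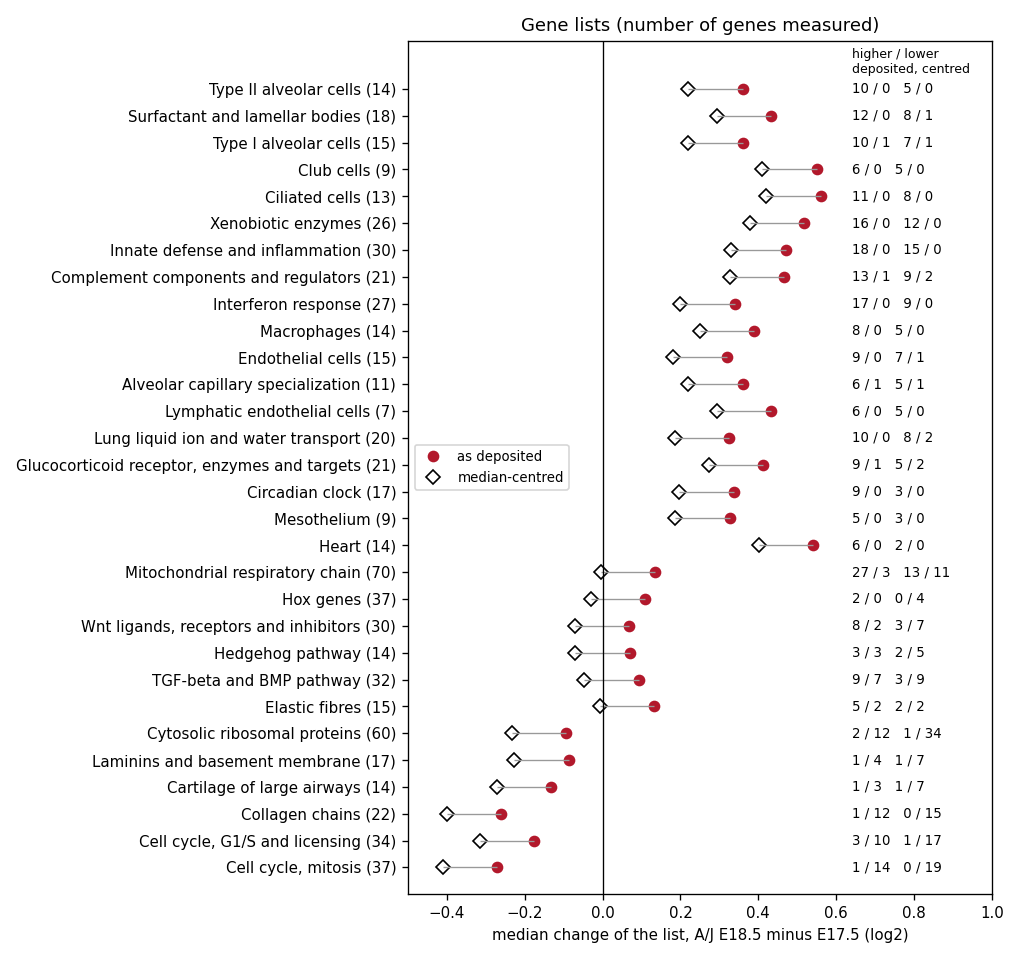
Median change (A/J E18.5 minus E17.5, log2, horizontal axis) of 30 gene lists, as deposited (filled) and after centring each array on its median (open), with the number of genes measured in brackets and the counts called higher and lower on each scale at the right. Lists from type II cells to heart have positive medians on both scales, lists from cytosolic ribosomal proteins to mitosis have negative ones on both, and those between change sign.

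Single members of the signalling pathways nevertheless kept their call on both scales. Shh, the ligand that the epithelium sends to the mesenchyme, had 8.77, 8.66 and 8.36 at E18.5, against 9.17, 9.42 and 9.29 at E17.5 (1.62-fold lower, adjusted p = 1.4e-05), and its signal transducer Smo was lower as well (-0.54 ± 0.09). Foxf1, a mesenchymal and endothelial factor of the same pathway, was higher (0.66 ± 0.11). Spry2 (0.48 ± 0.10), Spry1 (0.46 ± 0.09) and Spred2 (0.75 ± 0.09), which damp FGF signalling, were higher. Of the TGF-beta and BMP genes, Tgfb1 (0.71 ± 0.09) and Bmp2 (0.83 ± 0.14) were higher and the inhibitor Smad6 was lower (-0.62 ± 0.11). Of the Wnt genes, the transcription factor Lef1 was higher (0.60 ± 0.10) and the receptors Fzd8 (-0.51 ± 0.09) and Fzd1 (-0.44 ± 0.08) were lower. Of the Igf genes, 3 binding proteins were higher: Igfbp3 (0.95 ± 0.17), Igfbp6 (0.90 ± 0.16) and Igfbp7 (0.66 ± 0.12).

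Of 27 lung epithelial transcription factors, 12 were higher and 3 lower as deposited, and 3 were higher and 4 lower after centring. Over all probe sets tested, 26.8% were higher and 4.56% lower as deposited, and 11.1% and 12.2% after centring. The centred counts of the list were near those shares. Without E18.5 replicate 1 the 12 became 7, the 3 lower became 1 and the 3 higher after centring became 1. Cebpa, which drives type II maturation, had 9.11, 8.67 and 8.84 at E18.5, against 8.21, 8.37 and 8.35 at E17.5 (1.48-fold higher, adjusted p = 1.8e-04). Sox2, the factor of proximal airway progenitors, fell by 0.33 ± 0.10 as deposited and was lower on both scales, and Sox9, that of the distal tips, changed by -0.23 ± 0.12 and was called only after centring (-0.37, adjusted p = 0.022). Gata6 did not change beyond its error (0.08 ± 0.08).

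Glucocorticoids are known to speed lung maturation. Nr3c1, the glucocorticoid receptor, had 9.22, 9.29 and 9.13 at E18.5, against 9.79, 9.72 and 9.61 at E17.5 (1.41-fold lower, adjusted p = 9.2e-05). The target Klf15 had 9.17, 9.10 and 9.63 at E18.5, against 8.80, 8.51 and 8.41 at E17.5 (1.65-fold higher, adjusted p = 1.1e-04). Tsc22d3, the leucine zipper induced by glucocorticoids, changed by 0.72 ± 0.14 and Dusp1, a phosphatase, by 0.72 ± 0.17. Replicate 3 was the highest E18.5 lung in these targets. For this list and the clock genes below, the shares over all probe sets tested were 26.8% higher and 4.56% lower as deposited. After centring they were 11.1% and 12.2%. Of the 21 genes of the glucocorticoid list, 9 were higher and 1 lower as deposited, and 5 and 2 after centring. Without E18.5 replicate 3 the 9 became 5 and the 5 became 1. The count of 5 higher after centring became 8 without E18.5 replicate 2 and 3 without E17.5 replicate 2 or 3. Circadian clock genes were higher in 9 of 17 as deposited (4 without E18.5 replicate 1, 2 without E18.5 replicate 3 and 5 without E17.5 replicate 3) and in 3 after centring (5 without E18.5 replicate 2, and 1 without E18.5 replicate 3, E17.5 replicate 2 or E17.5 replicate 3). The 3 were Cry1 (0.53 ± 0.08), a repressor of the clock, Nfil3 (0.61 ± 0.16) and Arntl (0.42 ± 0.10), its activator.

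Markers of neighbouring tissues were counted too, beside shares over all probe sets tested of 26.8% higher as deposited and 11.1% after centring. The mean of 14 heart genes was 7.95, 7.61 and 7.89 in the E18.5 lungs, against 7.29, 7.30 and 7.46 in the E17.5 lungs. After centring the lowest E18.5 mean and the highest E17.5 mean were both 7.45. Of these genes 6 were higher as deposited (2 without E18.5 replicate 1, 3 without E18.5 replicate 3 and 2 without E17.5 replicate 1 or 2) and 2 after centring, Pln, phospholamban (1.16 ± 0.27), and Ryr2, the cardiac calcium channel (0.57 ± 0.10). The atrial and ventricular myosin Myh6 changed by 0.03 ± 0.33. Mesothelial genes averaged 8.12, 7.99 and 8.10 at E18.5, against 7.68, 7.70 and 7.68 at E17.5, and 5 of 9 were higher as deposited (3 without E18.5 replicate 1, E18.5 replicate 3 or E17.5 replicate 2) and 3 after centring (0 without E18.5 replicate 1, and 1 without E18.5 replicate 3, E17.5 replicate 1 or E17.5 replicate 2), among them Msln (mesothelin, 0.62 ± 0.16). Esophageal genes averaged 6.75, 6.52 and 6.40 at E18.5, against 6.40, 5.87 and 6.26 at E17.5. Liver genes averaged 5.95, 6.19 and 5.77 at E18.5, against 5.56, 5.56 and 5.75 at E17.5. After centring the days overlapped in both lists. Esophageal genes then had 6.58, 6.36 and 6.29 at E18.5, against 6.40, 5.86 and 6.25 at E17.5. Liver genes had 5.78, 6.03 and 5.66, against 5.56, 5.55 and 5.74. In each list 1 of 12 genes was called, Krtdap and Trf. The defining keratins Krt5 and Krt13 (0.11 ± 0.46 and 0.90 ± 0.85) and albumin, Alb (0.66 ± 1.19), varied widely between litters and were not called. How far tissue carried over with the lung bears on any result above was not tested.

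The day was then set beside its neighbours in A/J. On centred values Chil1 averaged 5.11 ± 0.09 on E16.5 and 7.59 ± 0.17 a day later, 10 ± 0.68 on E18.5 and 11.71 ± 0.23 on E19.5 (SD, n = 3 each). Car4 had 6.10 ± 0.07, 6.30 ± 0.33, 8.39 ± 0.41 and 10.40 ± 0.17 over the same 4 ages, so that its level moved chiefly after E17.5. Kif11 had 9.91 ± 0.05, 8.99 ± 0.22, 8.08 ± 0.20 and 6.33 ± 0.63, and Col1a2 had 12.23 ± 0.02, 12.22 ± 0.09, 11.29 ± 0.13 and 10.97 ± 0.12. Col1a2 was thus level from E16.5 to E17.5. The same order of days can be given for whole lists by their median changes on centred values. Mitotic genes changed by a median of -0.81 over the day before, -0.41 over this day and -1.27 over the day after, and type II markers by 1.20, 0.22 and 0.52. Collagen chains changed by 0.22, -0.40 and 0.03. Neighbouring days share the litters of the age between them, so these values are not independent.

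**Figure D4:**
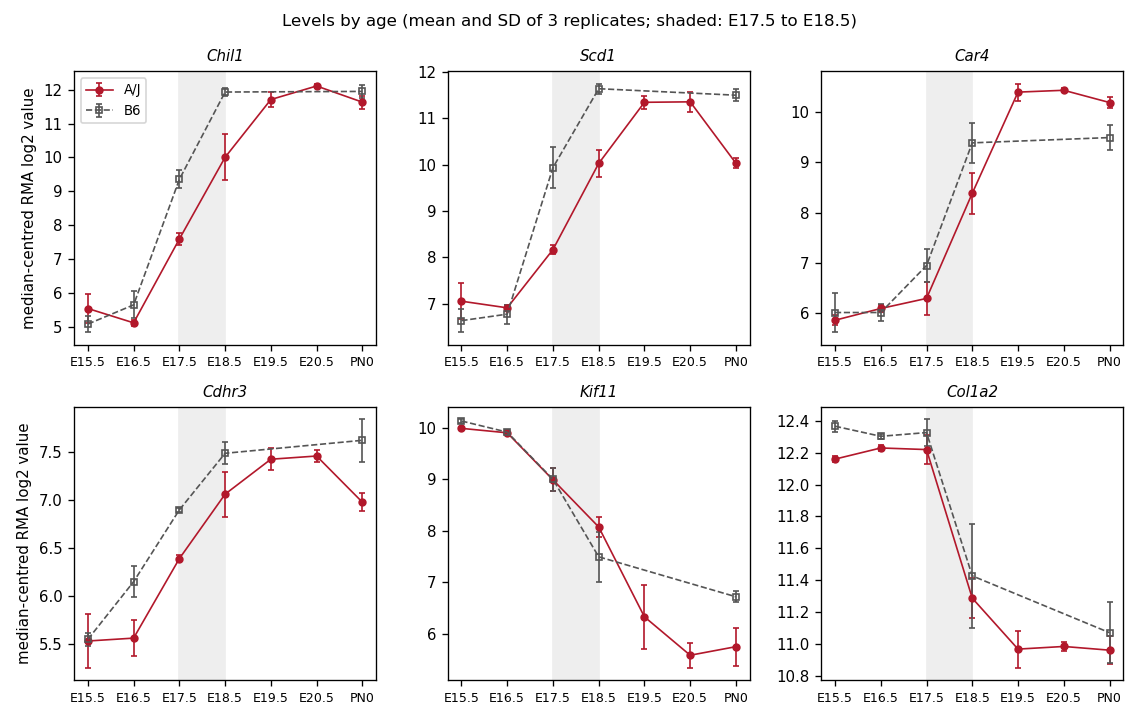
Median-centred RMA log2 value (vertical axis) by age (horizontal axis) of 6 genes in A/J (filled circles, solid line) and B6 (open squares, dashed line), mean and SD of 3 replicates, with the step from E17.5 to E18.5 shaded; B6 has no values at E19.5 and E20.5. In A/J, Chil1 and Scd1 are on a rise that began by E17.5, Car4 and Col1a2 leave their earlier level within the shaded day, and Kif11 falls throughout.

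The same day was then set against its counterpart in B6, where 2774 probe sets (12.7%) were higher and 2392 (11.0%) lower as deposited, and 2951 (13.5%) higher and 2246 (10.3%) lower after centring. The 2 strains share no arrays. Of the 2428 probe sets higher on both scales in A/J, 1449 were also higher on both in B6 (59.7% of the A/J set and 52.3% of the B6 set), and 4 were lower. Of the 993 lower on both scales in A/J, 613 were also lower on both in B6 (61.7% of the A/J set and 27.6% of the B6 set), and 3 were higher. Tested directly, as the A/J change minus the B6 change, the change was higher in A/J for 298 probe sets (1.37%) and lower for 34 (0.156%) as deposited, and higher for 12 (0.0551%) and lower for 60 (0.275%) after centring; 12 and 33 were called on both scales. These counts moved with single libraries. The 298 became 53 without A/J E17.5 replicate 1, 58 without A/J E18.5 replicate 1 and 76 without B6 E17.5 replicate 3, and 893 without A/J E18.5 replicate 3; the 34 ranged from 12 without B6 E17.5 replicate 3 to 77 without A/J E18.5 replicate 3. With limma fitted to the 4 groups alone no probe set was called (3040 were higher and 270 lower at an unadjusted p under 0.05).

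The 8 largest called negative differences, with a change lower in A/J than in B6, kept their call after centring. Of these 8 genes, Inmt and C6 rose in A/J, Zfp975 fell (-1.04), and the others were not called in A/J. Inmt was at 10.44, 9.88 and 11.06 in A/J at E18.5 and 8.71, 8.69 and 8.89 in A/J at E17.5, and at 10.05, 9.56 and 11.04 in B6 at E18.5 and 6.41, 6.09 and 6.25 in B6 at E17.5. The E18.5 lungs of the strains overlapped and the E17.5 lungs did not, and the difference of changes was -2.27 (adjusted p = 0.014). Rsad2 was at 7.17, 6.95 and 7.27 in A/J at E18.5 and 7.22, 7.34 and 6.74 in A/J at E17.5, and at 7.62, 7.62 and 8.14 in B6 at E18.5 and 5.96, 6.21 and 6.30 in B6 at E17.5 (difference -1.60, adjusted p = 0.0086). Here the days overlapped in A/J and were apart in B6. Ifit1, an antiviral RNA sensor, differed by -1.51, Hdc, histidine decarboxylase of mast cells, by -1.46, Zfp975 by -1.48, Phf11a by -0.99, Acoxl, a peroxisomal oxidase, by -0.97 and C6 by -0.95. The change of Lyz2 was 0.78 in A/J, against 1.56 in B6, a difference of -0.79 (adjusted p = 0.039).

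Of the interferon list, 17 of 27 genes rose in A/J and 18 did in B6, the median changes being 0.34 and 0.63. After centring 9 were higher in A/J and 18 in B6, with medians of 0.20 and 0.64. On both scales the difference between strains was called for Rsad2 and Ifit1. Surfactant and lamellar body genes were higher in 12 of 18 in A/J and in 14 in B6, with median changes of 0.43 and 0.77 (8 and 14 after centring, medians 0.29 and 0.78), and the difference was called for Lyz2 and Fabp5, both lower in A/J. Ciliated genes were higher in 11 of 13 in A/J and in 3 in B6 (8 and 3 after centring), but no difference between strains was called in the list.

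Cell cycle genes fell in more members in B6. Of the 37 mitotic genes 14 were lower in A/J and 36 in B6, with median changes of -0.27 and -0.90 (19 and 36 genes after centring, medians -0.41 and -0.89). The difference was called for 5 of them, all higher in A/J, as deposited and for none after centring. Of the 34 G1/S genes 10 were lower in A/J and 27 in B6 (17 and 27 after centring), and the difference was likewise called for 5 as deposited and none after centring. Prim1, the DNA primase, was at 8.21, 8.27 and 8.0 in A/J at E18.5 and 8.43, 8.40 and 7.90 in A/J at E17.5, and at 7.0, 7.34 and 7.03 in B6 at E18.5 and 7.90, 8.29 and 8.34 in B6 at E17.5 (difference 0.97, adjusted p = 0.015). The days overlapped in A/J and not in B6.

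Trip13, a chromosome-associated ATPase, and Cldn6, a claudin of embryonic epithelium, were the named genes with a positive difference that was called on both scales. Trip13 differed by 0.94 (adjusted p = 0.0086), with a change of 0.34 in A/J and -0.60 in B6. Cldn6 differed by 1.08 (adjusted p = 0.014): it was at 8.91, 9.46 and 8.53 in A/J at E18.5 and 9.64, 9.5 and 9.34 in A/J at E17.5, and at 7.76, 7.86 and 7.43 in B6 at E18.5 and 9.05, 9.25 and 9.57 in B6 at E17.5. Its mean fell in both strains, by 0.53 and 1.61, but the days overlapped in A/J and not in B6. The other large positive differences lost their call after centring: Olfr1148 (1.34), Ifi202b (1.04), Smpx (0.96), Mir196a-1 (0.95) and H2bc18 (0.93), as did Prim1. Olfactory and vomeronasal receptor genes, which lung is not known to use, were counted after the values were seen. Of 1190, 256 were higher and 8 lower in A/J as deposited, and 71 and 30 after centring. Of all 19938 genes, 5384 were higher and 867 lower as deposited, and 2230 and 2310 after centring. The receptors' shares of higher genes were thus below those of all genes. Their median change was 0.15 as deposited, against 0.12 over all genes, and 0.01 after centring. In B6, 16 of the receptors were higher and 18 lower as deposited.

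**Figure D5:**
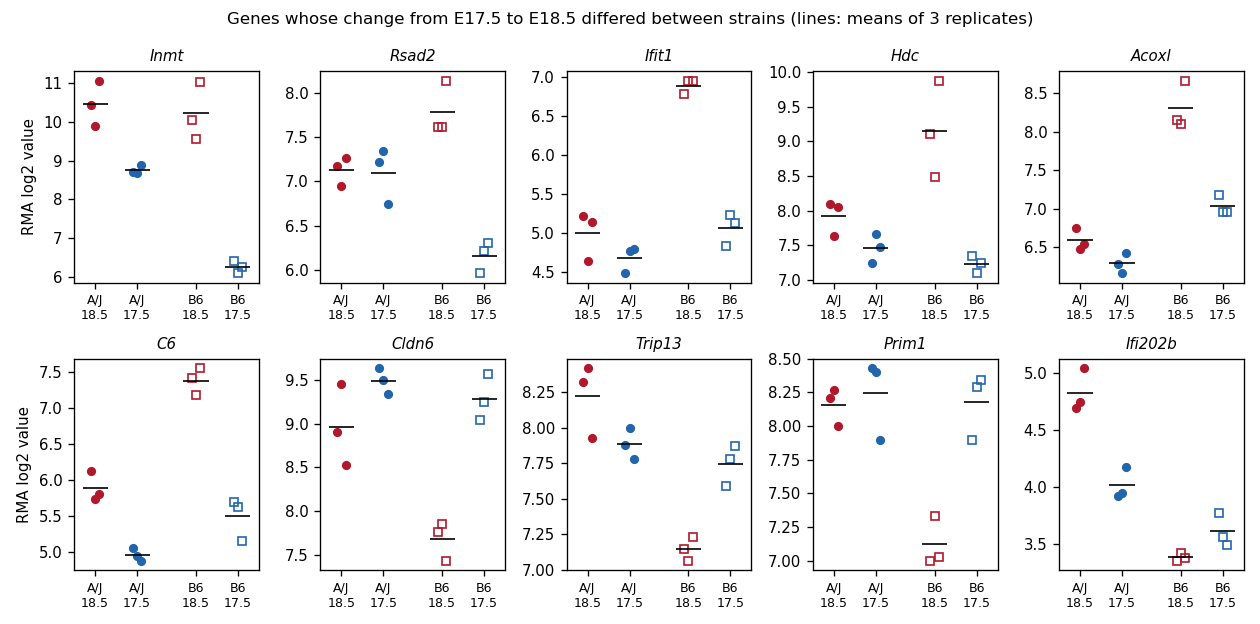
RMA log2 value of 10 genes whose change from E17.5 to E18.5 differed between strains, as deposited: A/J (filled circles) at E18.5 and E17.5, then B6 (open squares) at E18.5 and E17.5, with lines at the means of 3 replicates. In Inmt, Rsad2, Ifit1, Hdc, Acoxl and C6 the step is larger in B6, in Cldn6 and Prim1 the fall is larger in B6, and in Trip13 and Ifi202b the strains move apart. The B6 means of Ifi202b, 3.38 at E18.5 and 3.61 at E17.5, lie below 3.74, the median level of the dimmest of the 10 bins. Its step in B6 is thus at the dim end of the array.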

How the data were processed

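RNA of right lung was hybridised to Affymetrix Mouse Gene 1.0 ST arrays. The authors deposited log2 values normalised by RMA in Affymetrix Expression Console 1.1, per the submitters' processing notes; depth has no meaning for arrays, and the number of litters limits the precision. Arrays were assigned to strain, age and replicate by their titles. Of 35556 probe sets, 21789 with 1 gene symbol were tested (1621 had several symbols and 12146 none); for gene lists the probe set with the highest mean stands for a gene. Of 999 genes with several probe sets, 19 had probe sets called in opposite directions. limma 3.58.1 in R 4.3.3 fitted 12 group means to 36 replicates (24 residual degrees of freedom, prior 6.13), with Benjamini-Hochberg adjustment over all tested probe sets, as deposited and with each array centred on its median. The fit was tested on simulated data. The genes named are the 15 largest changes each way, called on both scales without overlap, up to 4 called members of each of the 63 lists with defining members, and the 8 largest strain differences each way. The comparison, members and lists were chosen with earlier results of these data known. Promoters are those of RefSeq on GRCm38.p6. Alternatives are given in the closing section.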

Additional observations from a re-analysis of the deposited data

Results flagged for a closer look

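The change from E17.5 to E18.5 differed between strains by the direct test for 298 probe sets with a higher and 34 with a lower change in A/J than in B6. Among named genes the A/J change exceeded the B6 change for Olfr1148 (1.34), Cldn6 (1.08), Ifi202b (1.04), Prim1 (0.97), Smpx (0.96), Mir196a-1 (0.95), Trip13 (0.94) and H2bc18 (0.93), of which Cldn6 and Trip13 kept their call after centring. It fell short of the B6 change for Inmt (-2.27), Rsad2 (-1.60), Ifit1 (-1.51), Zfp975 (-1.48), Hdc (-1.46), Phf11a (-0.99), Acoxl (-0.97) and C6 (-0.95). The higher medians of the A/J E18.5 arrays move with the positive differences, whose count is 12 after centring, and their part in single genes was not tested.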

How the results depend on the processing

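Of 251 named genes called as deposited, 206 kept their call after centring and 208 after quantile normalization. With only the A/J E18.5 and E17.5 groups in the model 208 kept it, and none changed direction in these fits. The named genes with the largest rises and falls were picked from genes called on both scales, so their call after centring was fixed. The 206 is therefore no measure of how calls over all probe sets fare. The 5831 probe sets higher in A/J became 2428 after centring, 2489 after quantile normalization, 3198 with only the groups of the comparison, 765 with a fold of 1.5 and 3601 at an adjusted p under 0.01 (4312 to 5396 leaving out a replicate). The 993 lower became 2656, 2484, 359, 80 and 497, and 1625 over all probe sets (656 to 1255). After centring, the fold left 280 of 2428 higher (1639 to 2580) and 236 of 2656 lower (1873 to 2780). The 298 higher differences between strains became 12 after centring, 17 after quantile normalization, 0 with only the 4 groups, 146 with the fold and 9 at 0.01 (53 to 893), and the 34 lower became 60 after centring, 64 over all probe sets, 0 with only the 4 groups and 1 at 0.01 (12 to 77). The 12 and 60 centred differences ranged from 2 to 65 and from 26 to 208. The cause was not tested.

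Replicate numbers did not pair the litters: deviations of same-numbered arrays correlated at 0.04, -0.06 and -0.10, and 1 E18.5 replicate correlated best with its own number. With the replicate number as a block the counts were 5735 higher and 973 lower in A/J (2337 and 2560 centred) and 239 and 31 for the difference (9 and 50 centred); centred fits leaving out replicates or using the block or the fold were chosen after seeing the data.

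Changes of genes that were not called turned sign. After centring they were -0.07 for H2bc18, -0.11 for Rsad2, -0.103 for Sftpc, -0.0633 for Igfbp2, -0.02 for Foxj1, -0.07 for Pecam1, -0.0933 for Kdr, -0.0533 for Aplnr, -0.0633 for Gata6, -0.107 for Myh6 and -0.03 for Krt5. After quantile normalization they were -0.0981 for H2bc18, -0.101 for Rsad2, -0.0749 for Igfbp2, -0.0538 for Foxj1, -0.0394 for Pecam1, -0.0614 for Kdr, -0.0191 for Aplnr, -0.0238 for Csf1r, -0.0467 for Gata6, -0.128 for Myh6 and -0.0083 for Krt5. With a replicate left out they ranged from -0.255 to 0.01 for Prim1, -0.0517 to 0.183 for H2bc18, -0.15 to 0.15 for Rsad2, -0.208 to 0.0667 for Phf11a, -0.112 to 0.0883 for Cav1, -0.125 to 0.205 for Igfbp2, -0.0633 to 0.142 for Myh6 and -0.12 to 0.405 for Krt5.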
